A study of Mus musculus with 4 samples.

Results

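Hepcidin (gene Hamp), hemojuvelin (Hjv) and 8 further genes of iron handling (Hfe, Tfr2, Tfrc, Slc40a1, Bmp6, Smad7, Id1 and Tmprss6) were followed in cultured mouse hepatocytes with and without the sugar-responsive transcription factor ChREBP. Members were taken by symbol from the deposited value table, in which each of the 10 genes had 1 probe set with a single platform gene symbol, out of 22180 genes in all. The set was chosen by function and by earlier log2 differences of these data between fructose and control medium, in which Hjv stood low. The members' levels are therefore a description, with no test.

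Primary hepatocytes came from 2-month-old male mice, either Chrebp-KO (KO, labelled as deficient in ChREBP, the product of Mlxipl) or wild type (WT). Culture in serum-free medium lasted 16 h, and the medium either contained 25 mM fructose or did not (control). There were 4 groups, KO fructose, KO control, WT fructose and WT control, with 1 array each, so no difference below has a replicate check, a standard error or a p-value. The labels do not say whether cells of several mice were pooled, nor which part of Mlxipl was deleted.

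Values are log2 levels, so a difference of 1 is 2-fold. The 4 arrays had between 10368 and 10447 genes above a background level of 4.764. That level comes from olfactory receptor genes, which hepatocytes are assumed not to express. A gene was called where it lay above background on at least 1 array compared and differed by at least 2-fold. Mlxipl had log2 levels of 7.37 in KO fructose and 7.42 in KO control cells, and 8.43 in WT fructose and 8.08 in WT control cells, so its probe set was 2.09-fold lower in KO in fructose and 1.58-fold lower in control medium and stayed well above background. The value is thus a limited check of the genotype. Of 10 hepatocyte markers, 9, such as Alb and Ttr, were above background on every array, and Ass1 was below it on all 4.

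Hepcidin is the liver hormone that limits the entry of iron into plasma: it binds ferroportin (Slc40a1), the cellular iron exporter, and causes its removal from the membrane. Hepatocytes set Hamp transcription largely through BMP-SMAD signalling. BMP6, made mainly by liver endothelial cells, acts on BMP receptors with hemojuvelin as co-receptor, while HFE and transferrin receptor 2 report the saturation of transferrin. Matriptase-2 (Tmprss6) cleaves hemojuvelin and SMAD7 restrains the pathway. Inflammatory cytokines raise Hamp through STAT3, and stress of the endoplasmic reticulum (ER) acts on it through further factors.

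The promoters of Hamp and of its neighbouring mouse copy Hamp2 are shown because the elements of these inputs lie in them and because the copies differ there. The sequences are the 250 bases before the annotated start in RefSeq (GRCm38.p6), both on the minus strand, at chr7:30944030-30944279 for Hamp and chr7:30924182-30924431 for Hamp2. Capitals mark matches to GGCGCC (the core of a BMP response element), TTCNNNGAA (a STAT site) and TGAGTCA (an AP-1 site).
Hamp: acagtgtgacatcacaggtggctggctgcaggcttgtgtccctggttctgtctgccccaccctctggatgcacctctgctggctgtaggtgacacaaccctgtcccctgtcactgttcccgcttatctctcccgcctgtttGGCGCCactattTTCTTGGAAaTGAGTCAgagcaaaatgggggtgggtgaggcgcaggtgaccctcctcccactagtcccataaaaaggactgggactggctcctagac
Hamp2: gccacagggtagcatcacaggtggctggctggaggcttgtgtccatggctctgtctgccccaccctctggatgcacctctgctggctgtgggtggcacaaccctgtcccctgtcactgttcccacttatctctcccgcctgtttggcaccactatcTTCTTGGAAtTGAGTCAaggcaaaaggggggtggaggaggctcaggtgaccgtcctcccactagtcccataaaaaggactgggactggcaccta

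Both strands were searched, and the matches do not overlap each other. Hamp held GGCGCC from 109 to 104 bases before the start, TTCTTGGAA from 97 to 89 and TGAGTCA from 87 to 81. Over an alignment of 247 bases the copies were 91.9% identical. The STAT and AP-1 matches were identical in Hamp2, whereas the BMP element carried the substitution G4A, counted from 1 at the first base of GGCGCC. The element CACGTG, an E-box that forms part of carbohydrate response elements, was in neither window. Of 32851 mouse promoter windows of this length, 9.59% held GGCGCC, 7.02% TTCNNNGAA, 4.46% TGAGTCA or its reverse complement and 6.02% CACGTG. A match describes the letters and is not a binding site.

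Of the other members, Bmp6, Hfe, Tfr2 and Tfrc had promoter windows in the same table, and they were searched in the same way. The Bmp6 window held CACGTG from 127 to 122 bases before the start. Hfe held the reverse complement of the AP-1 site, TGACTCA, from 67 to 61 bases before it, and the Tfrc window at chr16:32608646-32608895 held GGCGCC from 89 to 84. The 3 Tfr2 windows held no match to these letters.

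In hepatocytes of both genotypes, fructose medium went with about 4-fold more Hamp and about 4-fold less Hjv, and the other iron genes differed by less than 2-fold. Of the 9 members above background, Hamp was called higher and Hjv lower in KO cells and likewise in WT cells. Over all detected genes, 1.68% were called higher and 1.18% lower in KO, and 3.1% higher and 3.01% lower in WT. The median difference of the 10 members was -0.17 in KO and -0.11 in WT, beside -0.01 and 0.01 over all genes.

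**Figure D1:**
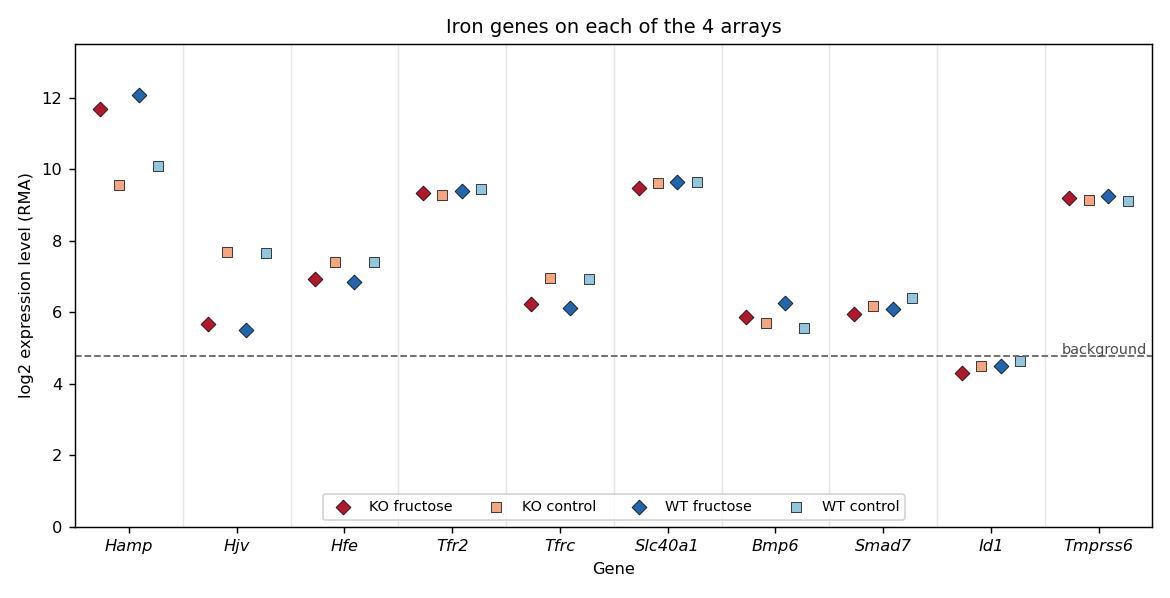
Log2 expression level (vertical axis) of the 10 iron genes on the 4 arrays, 1 point per array, with the background level of 4.764 as a dashed line. Hamp is higher and Hjv lower on both fructose arrays (diamonds) than on both control arrays (squares), and Id1 lies below background throughout.

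Hamp, the hepcidin gene, had log2 levels of 11.67 in KO fructose and 9.56 in KO control cells, and 12.06 in WT fructose and 10.08 in WT control cells. Both fructose arrays lay above both control arrays, and within each medium the KO array was the lower. The fructose difference was 2.11 in KO, or 4.32-fold, and 1.97 in WT, or 3.93-fold. Ordered by size, Hamp was the 18th highest of 10752 detected genes in KO and the 57th highest of 10814 in WT. KO minus WT was -0.39 in fructose medium, a level 1.31-fold lower in KO, and -0.52 (1.44-fold lower in KO) in control medium. The fructose difference in KO exceeded the WT one by 0.14.

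Hamp2, the copy without the exact BMP element, had log2 levels of 6.62 in KO fructose and 5.77 in KO control cells, and 6.87 in WT fructose and 5.86 in WT control cells. It was higher in fructose medium in both genotypes, by 0.85 in KO and by 1.01 in WT. The 2 genes are close copies and can share probes, so how far each value belongs to its own gene is uncertain. Hamp2 was added because of this likeness, after its values were seen.

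Hjv, the BMP co-receptor hemojuvelin, had log2 levels of 5.66 in KO fructose and 7.68 in KO control cells, and 5.49 in WT fructose and 7.65 in WT control cells. Both fructose arrays lay about 2 log2 units below both control arrays and still above background. The fructose difference was -2.02 in KO (4.06-fold lower) and -2.16 in WT (4.47-fold lower). Hjv was the 6th lowest detected gene in KO and the 12th lowest in WT. The genotypes were close in either medium, with KO minus WT at 0.16 in fructose and 0.03 in control medium, and the effects of fructose differed by 0.14.

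**Figure D2:**
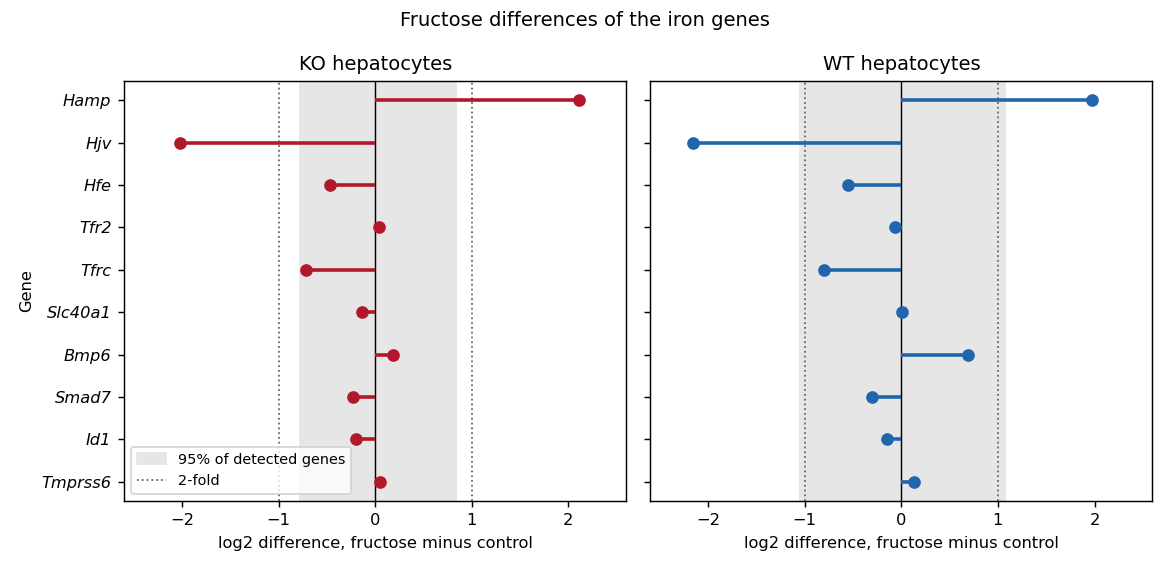
Log2 difference, fructose minus control (horizontal axis), of each iron gene in KO (left) and WT (right) hepatocytes, 1 array per group. The grey band holds 95% of detected genes (-0.78 to 0.84 in KO, -1.05 to 1.07 in WT) and dotted lines mark 2-fold. Hamp and Hjv lie outside the band on opposite sides in both genotypes.

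Of the genes that sense circulating iron, Hfe was lower on both fructose arrays and Tfr2 hardly differed. Hfe, an MHC class I-like partner of the transferrin receptors, had log2 levels of 6.93 in KO fructose and 7.40 in KO control cells, and 6.84 in WT fructose and 7.40 in WT control cells. It was 1.39-fold lower with fructose in KO and 1.47-fold lower in WT, under the 2-fold size. Tfr2, the transferrin sensor of hepatocytes, had levels of 9.33 and 9.29 in KO fructose and KO control cells and 9.38 and 9.45 in WT fructose and WT control cells. Its 4 arrays spanned less than 0.2 log2 units, and the order of the media was not shared by the genotypes.

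Tfrc, transferrin receptor 1, which takes up transferrin-bound iron and whose messenger RNA is stabilised when cells lack iron, was lower on both fructose arrays. Its log2 levels were 6.23 in KO fructose and 6.95 in KO control cells, and 6.12 in WT fructose and 6.92 in WT control cells. These are 1.65-fold and 1.74-fold lower levels, which passed 1.5-fold but not 2-fold. At 1.5-fold, 11.9% of detected genes were called in KO and 20.3% in WT, so a change of this size was common. Slc40a1, ferroportin, had levels of 9.46 in KO fructose and 9.60 in KO control cells, and 9.64 on both WT arrays. Its largest difference in any comparison of genotypes or media was 1.13-fold.

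The ligand Bmp6 had log2 levels of 5.88 in KO fructose and 5.70 in KO control cells, and 6.27 in WT fructose and 5.57 in WT control cells. The WT fructose array stood above the other 3, which lay within 0.31 of each other. Fructose minus control was 0.18 in KO (1.13-fold) and 0.69 in WT (1.62-fold), and the difference of these effects, -0.52, was the farthest from 0 among the members. KO was 1.31-fold below WT in fructose medium, whereas in control medium it was 1.09-fold above it.

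BMP6 in liver comes mainly from endothelial cells, and Slc40a1 is also abundant in macrophages, so markers of those cells are given beside these values. Of 13 sinusoidal endothelial markers, 9, 8, 10 and 9 were above background on the KO fructose, KO control, WT fructose and WT control arrays. Stab2, Clec4g and Tek were below it on all 4. Their summed linear level was 715 and 746 in KO fructose and KO control cells, and 915 and 1020 in WT fructose and WT control cells. The list's median for KO minus WT was -0.26 in each medium, with 9 of 13 below 0 in fructose and 12 in control medium. With fructose in WT, where Bmp6 was higher, the list's median was -0.10.

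Of 15 macrophage markers, 11 were above background on both KO arrays, 12 in WT fructose and 11 in WT control cells, with Vsig4, C1qc and Cd163 below it throughout. Their summed level was 2980 in KO fructose and 2810 in KO control cells, and 2680 in WT fructose and 3030 in WT control cells. The median for KO minus WT was -0.45 in fructose and -0.36 in control medium, with 12 and 13 of 15 below 0, while Slc40a1 differed by -0.18 and -0.04. Fcgr1 was called lower in KO in both media (-1.04 and -1.25) and Timd4 in fructose medium (-1.01). Cd68 carried most of the sum and was 0.44 above WT in KO in fructose medium. Without it, the other 14 markers summed to 589 in KO fructose and 579 in KO control cells, and 909 in WT fructose and 918 in WT control cells, which is lower in KO in both media. In such mixed samples, fewer cells of a type and less RNA per cell cannot be told apart, and the part of these cells in the Bmp6 and Slc40a1 values was not tested. Of 11 stellate cell markers, 7 were below background on all arrays, as were 4 of 6 measured cholangiocyte markers and all 3 measured erythroid markers. The remaining cholangiocyte markers, Sox9 and Cldn3, were well above background on all arrays. Their log2 levels lay from 9.39 to 10.3 and from 10.07 to 10.97.

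Among the members, the inhibitors of the pathway, Smad7 and Tmprss6, differed little. Smad7, the inhibitory SMAD, had log2 levels of 5.95 in KO fructose and 6.18 in KO control cells, and 6.09 in WT fructose and 6.39 in WT control cells. It was lower with fructose by 1.18-fold in KO and 1.23-fold in WT. Tmprss6, the protease that cleaves hemojuvelin, had levels of 9.20, 9.15, 9.24 and 9.11 in KO fructose, KO control, WT fructose and WT control cells. No pair of these arrays differed by more than 1.09-fold in the comparisons made. Id1, a direct BMP-SMAD target in hepatocytes, lay between 4.30 and 4.64, below background on all 4 arrays, and no fold is given for it.

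Between genotypes, 0 of the 9 detected members were called in fructose medium, where 1.28% of all detected genes were, and 0 in control medium, where 0.233% were. The members' differences lay between -0.39 and 0.16 in fructose and between -0.52 and 0.13 in control medium. For the difference of the fructose effects (KO minus WT), 0 of 9 were called, against 1.03% of all genes, with a range from -0.52 to 0.14. With such low percentages, a count of 0 among 9 genes says little.

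The rest of the pathway was read from 10 further lists, written with earlier results known. Over all detected genes, fructose calls were 1.68% higher and 1.18% lower in KO, against 3.1% and 3.01% in WT. More calls in WT than in KO are therefore general, and the list counts below are to be read beside these shares. Of 18 measured BMP ligands and antagonists, 8 were detected in KO and 10 in WT, and the calls were 0 in KO and 1 in WT. The called gene, Inhbe, encodes the activin E subunit and is made in liver. Its log2 levels were 7.83 in KO fructose and 6.97 in KO control cells, and 8.31 in WT fructose and 6.74 in WT control cells, so it was higher with fructose by 1.81-fold in KO and 2.97-fold in WT. Fgl1, a liver-secreted antagonist of BMP6, differed between fructose and control by -0.76 in KO and -0.68 in WT, under 2-fold. Erfe, the erythroid hepcidin suppressor erythroferrone, differed by 0.02 in KO and -0.10 in WT. The list medians were 0.06 in KO and 0.11 in WT.

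Among 18 measured BMP receptors and SMAD transducers, 0 were called in either genotype, with medians of 0.18 in KO and 0.14 in WT. Bmpr1a, a type I receptor, differed by 0.27 in KO and 0.08 in WT, and Smad1, a receptor-activated SMAD, by 0.23 and 0.16. Smurf1, a ubiquitin ligase that acts on SMADs, had the highest difference in KO, 0.84, and was at 0.69 in WT. Rgmb had the highest in WT, 0.74, and was at 0.56 in KO. Values above 0, many of them small, numbered 16 of 18 in KO and 13 of 18 in WT. These counts include genes below background, as 15 of the 18 were detected. The median over all genes was -0.01 in KO and 0.01 in WT, and the share of genes above 0 was not counted.

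Among 11 measured BMP-SMAD target genes, 5 were detected in each genotype and 0 were called. Id3 was 0.34 higher with fructose in KO and likewise in WT. Atoh8, a target that responds to iron in mouse liver, was 0.54 and 0.40 higher, whereas Id2 differed by -0.74 in KO and -0.76 in WT. Smad6 and Id4 were below background. Bambi differed by 0.14 in KO and 0.42 in WT, and Hes1 by -0.03 and 0.16. Most detected targets were thus higher with fructose, while Id2 was lower. All stayed under 2-fold, beside about 4-fold for Hamp. The part of BMP-SMAD signalling in the Hamp difference was not tested.

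**Figure D3:**
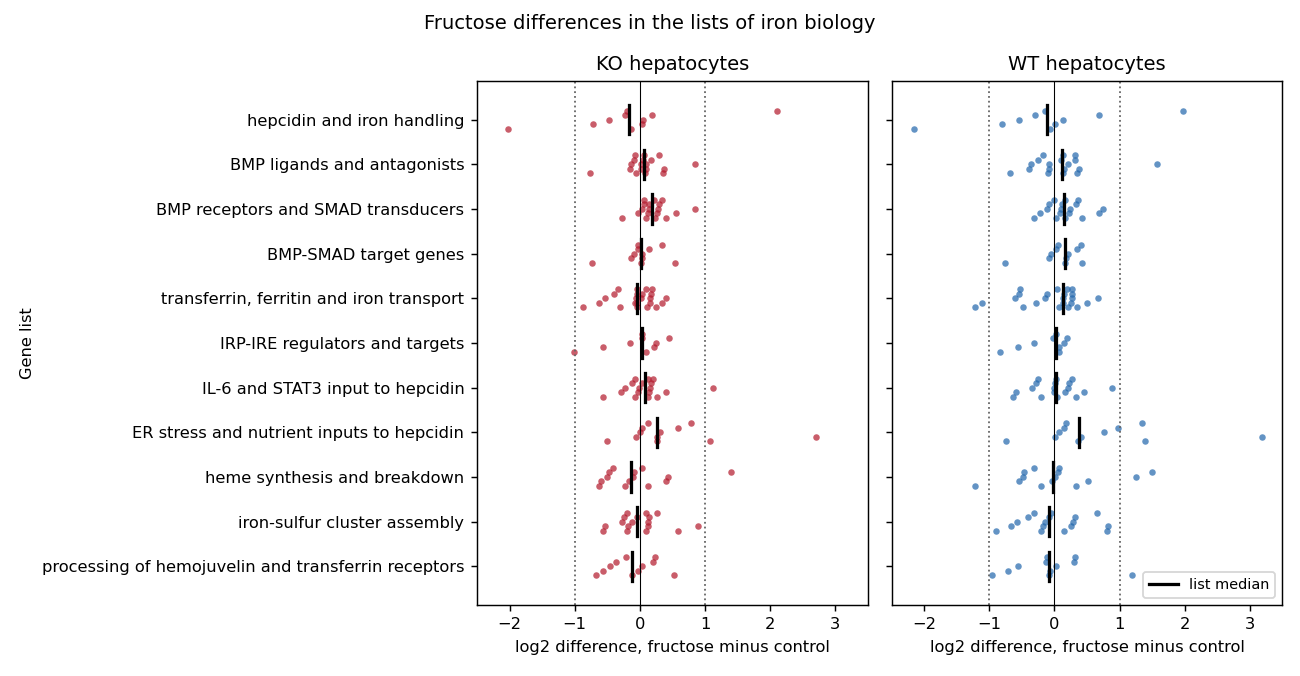
Log2 difference, fructose minus control (horizontal axis), of every measured gene (points) in the iron gene set and 10 related lists, in KO (left) and WT (right), with list medians as black bars and dotted lines at 2-fold. List medians lie between -0.17 and 0.26 in KO and between -0.11 and 0.38 in WT, and few genes pass 2-fold.

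In the list for the cytokine route to hepcidin, 1 of 18 measured genes was called in KO, higher, and 0 in WT. The shares called higher over all detected genes were 1.68% in KO and 3.1% in WT. Crp, an acute phase protein gene, had log2 levels of 11.27 in KO fructose and 10.15 in KO control cells, and 10.90 in WT fructose cells, which was 0.89 above the WT control array. It was 2.18-fold higher in KO and 1.85-fold higher in WT. Other STAT3-responsive genes were nearer to their control levels or lower. Socs3 differed by 0.21 in KO and 0.20 in WT, Saa2 by 0.15 and 0.00, and Hp, the haptoglobin gene, by -0.57 and -0.59. Il6 itself was below background on all arrays, and the list medians were 0.08 in KO and 0.02 in WT.

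The ER stress and nutrient list had the highest medians, 0.26 in KO and 0.38 in WT, with 2 of 12 measured genes called in KO and 3 in WT, all higher. Over all detected genes, 1.68% were called higher in KO and 3.1% in WT. Ddit3 (CHOP) had log2 levels of 10.36 in KO fructose and 7.66 in KO control cells, and 10.75 in WT fructose and 7.56 in WT control cells. It was 6.48-fold higher with fructose in KO and 9.14-fold higher in WT. Hspa5 (BiP), the main ER chaperone, was 2.09-fold higher in KO and 2.63-fold higher in WT. The difference of the fructose effects (KO minus WT) was -0.50 for Ddit3 and -0.33 for Hspa5, beside 0.14 for Hamp. The part of ER stress in the Hamp difference was not tested.

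Creb3l3, which encodes CREBH, a liver factor released from the ER membrane and reported to act on the Hamp promoter in ER stress, followed another pattern. Its log2 levels were 8.52 in KO fructose and 8.21 in KO control cells, and 9.42 in WT fructose and 8.08 in WT control cells. The WT fructose array stood apart, and the fructose difference was 0.31 in KO and 1.34 in WT, beside 2.11 and 1.97 for Hamp. These are RNA levels and do not measure release of the factor from the membrane. The part of CREBH in the Hamp difference was not tested. Of the other genes in that list, Atf4 was higher by 0.78 in KO and 0.97 in WT, just under 2-fold in WT. Cebpb was higher by 0.59 in KO and 0.76 in WT, and Cebpa differed by 0.04 and 0.01. Hnf4a, the hepatocyte nuclear factor, differed by -0.50 in KO and -0.75 in WT.

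Iron storage and transport genes were mostly close to their control levels, with 0 of 23 measured genes called in KO and 2 in WT, both lower. Over all detected genes, 1.18% were called lower in KO and 3.01% in WT. Fth1, the ferritin heavy chain, differed by 0.03 in KO and 0.07 in WT, and Slc11a2, the transporter DMT1, by 0.25 and 0.19. Slc39a14 (ZIP14), which takes up iron not bound to transferrin, was higher by 0.19 in KO and 0.50 in WT. The called genes were the ferrireductase genes Steap4 and Steap3. Steap4 was 1.82-fold lower with fructose in KO and 2.33-fold lower in WT. Steap3 had log2 levels of 6.22 in KO fructose and 6.74 in KO control cells, and 5.65 in WT fructose and 6.76 in WT control cells. Trf and Ftl1 were present only on probe sets with several genes and are not reported.

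Iron regulatory proteins bind iron-responsive elements and thereby set Tfrc and ferritin synthesis. Of 9 measured regulators and targets, 1 was called in KO, lower, and 0 in WT. The shares called lower over all detected genes were 1.18% in KO and 3.01% in WT. Epas1, the hypoxia factor HIF-2α, had log2 levels of 6.65 in KO fructose and 7.66 in KO control cells, and 7.04 in WT fructose and 7.60 in WT control cells, a difference of -1.01 in KO, just past 2-fold, and -0.56 in WT. Aco1, iron regulatory protein 1, differed by -0.56 in KO and -0.84 in WT, and Ireb2, iron regulatory protein 2, by 0.22 and 0.14. Fbxl5, the iron-sensing ligase subunit that acts on both proteins, differed by 0.03 and -0.02.

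In heme metabolism, 1 of 14 measured genes was called in KO and 3 in WT, where calls were also more frequent over all genes. Hmox1, the heme oxygenase that frees iron from heme, had log2 levels of 10.64 in KO fructose and 9.24 in KO control cells, and 11.02 in WT fructose and 9.52 in WT control cells. It was 2.63-fold higher in KO and 2.83-fold higher in WT. Cpox, a late enzyme of heme synthesis, was 1.35-fold higher in KO and 2.38-fold higher in WT, and Abcg2, a transporter that also exports porphyrins, was 1.51-fold and 2.32-fold lower. Alas1, the first and rate-limiting enzyme of heme synthesis in liver, differed by 0.04 and 0.05. Of 17 measured genes of iron-sulfur cluster assembly, 0 were called, with differences from -0.57 to 0.89 in KO and from -0.90 to 0.82 in WT.

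Among 11 genes for the processing of hemojuvelin and the transferrin receptors, 0 were called with fructose in KO and 1, higher, in WT. The shares called higher over all detected genes were 1.68% in KO and 3.1% in WT. Furin, the convertase that cleaves hemojuvelin into a soluble form, had log2 levels of 9.98 in KO fructose and 10.19 in KO control cells, and 11.46 in WT fructose and 10.27 in WT control cells. The WT fructose array stood more than 1 log2 unit above the other 3. In fructose medium KO was 2.78-fold below WT, and the difference of the fructose effects (KO minus WT) was -1.40. Mmp14, a membrane metalloproteinase that can cleave hemojuvelin, differed between fructose and control by -0.57 in KO and -0.96 in WT.

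The genes most like Hjv were sought by the distance, over the 4 arrays, between log2 levels centred on each gene's mean, among 11050 genes detected on any array and without predicted genes and olfactory or vomeronasal receptors. The nearest 5 were Csn3, Tmem71, Slc44a3, Cabcoco1 and Fblim1, at distances from 0.32 to 0.43 log2 units. Their fructose differences lay between -2.08 and -1.44 in KO and between -2.19 and -1.77 in WT. Csn3, the kappa-casein gene, was nearest, with 6.0 in KO fructose and 7.75 in KO control cells, and 5.81 in WT fructose and 7.62 in WT control cells. None of them is a member of the iron lists.

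The nearest 5 to Hamp were Gfpt1, Spire1, Elovl3, Pfkfb3 and Slco1b2, at distances from 0.33 to 0.41. Gfpt1, the first enzyme of the hexosamine pathway, had 8.74 in KO fructose and 6.88 in KO control cells, and 9.08 in WT fructose and 6.94 in WT control cells. Slco1b2, an uptake transporter of hepatocytes, was 3.57-fold higher with fructose in KO and 3.5-fold higher in WT. With only 4 arrays, likeness of this kind rests on the difference between media, and it was not tested.

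**Figure D4:**
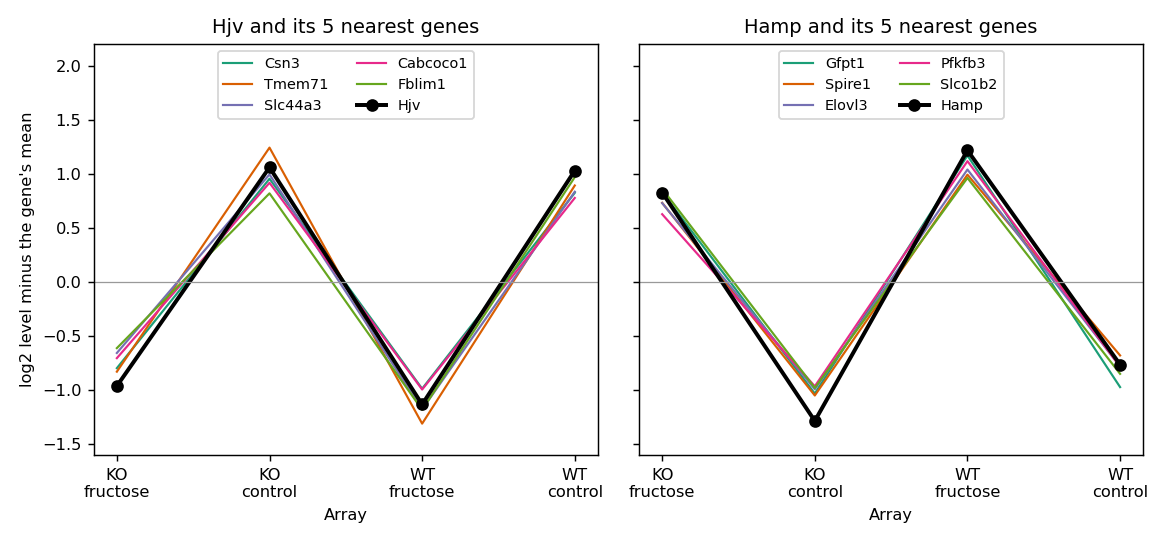
Log2 level minus the gene's own mean (vertical axis) on the 4 arrays for Hjv (left) and Hamp (right, both black) and the 5 genes nearest to each. The genes beside Hjv are low and those beside Hamp high on both fructose arrays.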

How the data were processed

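The authors deposited a log2 level for each probe set. Per the submitters' processing notes, processing used RMA, a robust average over probes, under R 3.4.0. RMA makes the arrays' distributions alike, so a shift shared by all genes cannot be seen. Per the labels, biotinylated cDNA was made from 400 ng of total RNA. Annotation version and genome build: not given in the sources used here.

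Of 41345 probe sets, 23521 had 1 gene symbol, and 23328 of these were matched by Entrez number to RefSeq names. Probe sets of a gene were averaged in log2, giving 22180 genes. Background was the 95th percentile of the mean levels of 1105 olfactory receptor genes. Differences were taken for 5 comparisons and counted at 2-fold, with no test, since each group has 1 array. The number of arrays limits precision throughout. The counting was tested on simulated data with changes set above the 2-fold threshold and little noise. That checks the code and not the rate of false calls between single arrays. All 10 members were named. Other lists gave their genes past 2-fold in a comparison of media or genotypes, at most 4 per list, and further genes named there were chosen with their values known. Members and lists were chosen with earlier results of these data known. Alternatives were median centring, repeated quantile normalization, loess (span 0.3), other filters, the brightest probe set, calls at 1.5-fold and 3-fold, and values raised to background. Python 3.11.15, pandas 2.3.3 and statsmodels 0.14.6 were used.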

Additional observations from a re-analysis of the deposited data

Results flagged for a closer look

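For some genes the effect of fructose had opposite signs in the 2 genotypes, or the effect of genotype had opposite signs in the 2 media. With 1 array per group none of these differences was tested. For Furin the fructose effect was -0.21 in KO and 1.19 in WT, a difference of -1.40. Among the iron genes, the fructose effects (KO minus WT) differed by 0.11 for Tfr2 and -0.14 for Slc40a1.

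For KO minus WT, the value in fructose medium minus that in control medium was -1.03 for Creb3l3, -0.81 for Cpox, -0.72 for Inhbe, -0.52 for Bmp6, -0.50 for Ddit3, -0.46 for Epas1 and -0.33 for Hspa5. It was 0.59 for Steap3 and -0.08 for Tmprss6. In control medium, KO minus WT was itself small for all of these genes, from -0.02 for Steap3 to 0.23 for Inhbe. Its sign there is therefore uncertain, and a switch of direction is not shown. The values for Tfr2, Slc40a1 and Tmprss6 rest on effects of at most 0.14 in size.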

How the results depend on the processing

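Under the alternatives that change values, the 250 member differences computed kept their side of 2-fold. Part of this was fixed in advance. The members, and the further genes counted below, each had a single probe set, so taking the brightest could not change a value. Raising values to background could change Id1 alone among them. The Hamp fructose difference ranged from 2.11 to 2.12 in KO and from 1.91 to 2.02 in WT, and that of Hjv from -2.05 to -2.01 and from -2.18 to -2.12. Hamp and Hjv were the members called with fructose in both genotypes under every filter and at 3-fold. At 1.5-fold, 4 members were called in WT in place of 2, Tfrc and Bmp6 being added, and 3 in KO, Tfrc being added. Among 325 further differences, of the other named genes and Hamp2, 1 crossed 2-fold: Hamp2 in WT was 1.0 with median centring, against 1.01. Over all genes, calls for fructose numbered 1275 in KO and 2195 in WT at 1.5-fold, 65 and 160 at 3-fold, against 308 and 661 at 2-fold. For KO against WT, they numbered 568 in fructose and 169 in control medium at 1.5-fold, 29 and 2 at 3-fold, against 137 and 25, and for the difference of effects 603 and 22 against 114. The summed macrophage marker level, as log2 of KO over WT, was 0.15 in fructose and -0.11 in control medium, and -0.62 and -0.66 without Cd68, an alternative chosen after seeing the data. No paired analysis was possible because each group has 1 array. No array could be left out, and signal near background limits Id1.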
